A study of Mus musculus with 32 samples.

Results

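Dnmt1, Uhrf1, Dnmt3a, Dnmt3b and Dnmt3l, the enzymes that copy and set DNA methylation and 2 proteins that guide them, were followed in fetal mouse germ cells of 11 groups. A probe set of the array was taken for a gene where the platform annotation gives it exactly 1 gene symbol and that symbol is the gene's name. Each of the 5 genes had 1 such probe set, of 19938 genes with one and 35556 probe sets in all, and values are log2 signals. Germ cells carrying the OG2 transgene, an EGFP reporter under the Oct4 promoter, were sorted at 17.5 dpc from fetuses whose lineage began with a G0 dam gavaged from 12.5 dpc with corn oil or an endocrine disruptor (ED). The EDs were BPA (bisphenol A, a plastics monomer), DEHP (a phthalate plasticiser) and VZ (the fungicide vinclozolin), and the daily doses were 0.2, 750 and 100 mg/kg in that order. Both sexes of the in utero exposed generation (G1R, FVBxOG2 fetuses of G0 dams) were measured after oil, BPA, DEHP and VZ. Male cells of the next generation (G2R, OG2xFVB fetuses, not themselves exposed) came from the lines of oil, DEHP and VZ dams. The study's methylation work bred such fetuses from G1 fathers and OG2 mothers, whereas the array labels give G1 as the mother's generation, so the exposed parent of the G2R arrays is not settled here. Each group held 3 arrays, except DEHP females with 2, which gave 32 arrays, 11 of female germ cells (FGCs) and 21 of male germ cells (MGCs, prospermatogonia at this age). All arrays are labelled as primordial germ cells, and whether a sample pools fetuses or litters is not stated in the sources used here, so p-values measure the spread between these samples, which may be partly technical.

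DNA methylation is erased in primordial germ cells and is set anew at different times in the sexes. Prospermatogonia remethylate their genome before birth, whereas oocytes, which enter meiosis before birth, wait until they grow in the postnatal ovary. DNMT3A and DNMT3B place methyl groups on unmethylated CpG sites, and DNMT3L, which has no catalytic activity of its own, stimulates them and is required for methylation in the germline. DNMT1 copies methylation to the daughter strand after replication, where UHRF1 brings it by binding hemimethylated CpG sites. Transcription starts at several sites in some of these genes: the oocyte form of DNMT1 begins upstream of the somatic form, and DNMT3A2, the short form of DNMT3A in germ cells, begins at an internal promoter. Probe sets of this array sum over a gene, so these forms were not told apart, and the levels of 1 gene were not set against those of another.

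On GRCm38.p6, Dnmt1 lies at chr9:20907206-20959888, Uhrf1 at chr17:56303337-56323486, Dnmt3a at chr12:3801559-3914443, Dnmt3b at chr2:153649411-153687730 and Dnmt3l at chr10:78042287-78063622. The RefSeq promoter table of that build, with windows of 300 bases that end shortly after a start, held 12 windows for the 5 genes: 3 for Dnmt1, 2 for Uhrf1, 3 for Dnmt3a, 1 for Dnmt3b and 3 for Dnmt3l. Those of the 3 genes with the largest sex differences are printed here, from the first start to the last, except that of the overlapping pair of Dnmt3a windows only the first is given. Capitals mark matches on either strand to an E2F site (TTTCCCGC or TTTGGCGC), to the box known as CCAAT, or to a GC box. The letters searched for the GC box were GGGCGG, and overlapping matches run together. The Dnmt3l windows, on the plus strand, are chr10:78042037-78042336, chr10:78049592-78049891 and chr10:78055085-78055384.
Dnmt3l start 1: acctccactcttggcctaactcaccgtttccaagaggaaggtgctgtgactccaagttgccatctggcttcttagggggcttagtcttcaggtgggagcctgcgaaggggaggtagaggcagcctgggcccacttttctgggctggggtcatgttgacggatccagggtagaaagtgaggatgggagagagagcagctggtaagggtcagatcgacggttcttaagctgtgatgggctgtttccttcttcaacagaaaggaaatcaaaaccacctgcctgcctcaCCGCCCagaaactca
Dnmt3l start 2: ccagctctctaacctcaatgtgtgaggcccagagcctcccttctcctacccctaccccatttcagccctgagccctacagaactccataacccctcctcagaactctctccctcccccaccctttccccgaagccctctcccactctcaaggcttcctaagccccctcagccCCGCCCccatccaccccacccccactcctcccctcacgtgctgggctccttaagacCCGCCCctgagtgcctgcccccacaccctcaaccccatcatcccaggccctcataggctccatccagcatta
Dnmt3l start 3: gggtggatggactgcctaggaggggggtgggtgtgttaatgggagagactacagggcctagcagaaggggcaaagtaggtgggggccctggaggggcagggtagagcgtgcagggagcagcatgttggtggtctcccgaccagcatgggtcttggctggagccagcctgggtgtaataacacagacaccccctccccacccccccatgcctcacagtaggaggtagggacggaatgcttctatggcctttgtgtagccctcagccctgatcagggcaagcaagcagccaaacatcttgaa
The Uhrf1 windows, also on the plus strand, are chr17:56303087-56303386 and chr17:56304063-56304362.
Uhrf1 start 1: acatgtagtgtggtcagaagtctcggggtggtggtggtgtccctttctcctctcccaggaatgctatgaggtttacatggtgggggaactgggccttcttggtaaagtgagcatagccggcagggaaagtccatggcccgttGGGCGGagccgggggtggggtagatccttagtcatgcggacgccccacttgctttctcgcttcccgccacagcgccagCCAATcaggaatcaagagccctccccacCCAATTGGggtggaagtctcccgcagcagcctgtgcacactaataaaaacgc
Uhrf1 start 2: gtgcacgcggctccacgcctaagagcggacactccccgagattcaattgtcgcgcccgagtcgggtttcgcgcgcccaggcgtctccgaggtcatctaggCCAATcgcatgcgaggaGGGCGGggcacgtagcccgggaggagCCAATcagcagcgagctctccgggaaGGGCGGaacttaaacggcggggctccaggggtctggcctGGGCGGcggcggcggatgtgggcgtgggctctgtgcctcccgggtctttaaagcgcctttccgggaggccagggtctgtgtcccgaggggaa
The outer Dnmt3a windows, on the plus strand, are chr12:3806730-3807029 and, further 3′, chr12:3891494-3891793.
Dnmt3a start 1: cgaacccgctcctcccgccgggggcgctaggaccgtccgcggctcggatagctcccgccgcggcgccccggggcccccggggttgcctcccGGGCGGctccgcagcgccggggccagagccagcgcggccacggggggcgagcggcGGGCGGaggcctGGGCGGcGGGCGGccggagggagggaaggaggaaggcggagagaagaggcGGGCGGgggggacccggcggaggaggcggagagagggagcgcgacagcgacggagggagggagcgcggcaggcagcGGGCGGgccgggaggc
Dnmt3a start 3: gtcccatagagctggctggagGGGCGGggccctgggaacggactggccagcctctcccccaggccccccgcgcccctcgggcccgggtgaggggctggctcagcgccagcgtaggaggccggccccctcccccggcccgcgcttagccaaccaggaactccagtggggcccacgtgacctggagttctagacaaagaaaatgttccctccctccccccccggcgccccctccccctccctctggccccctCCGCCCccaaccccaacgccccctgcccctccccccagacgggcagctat

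The 3 Dnmt3l windows held 6, 4 and 3 CG dinucleotides, below the median of 7 over all 32851 promoter windows of the table. The other genes each had at least 1 window rich in CG, with 33 in a window of Dnmt1, 33 in the second of Uhrf1, 46 and 47 in the overlapping pair of Dnmt3a and 30 in that of Dnmt3b. The first Dnmt1 window, the most upstream, held 2. A GC box was found in 9 of the 12 windows, against 35.7% of all windows, a CCAAT box in 4 of 12, against 37.4%, and an E2F site in 1 of 12, against 1.56%. The 4 windows with a CCAAT box belonged to Dnmt1 and Uhrf1, the maintenance pair, and the window with the E2F site was the third of Dnmt1. A match is a description of these letters and not of a bound site.

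Across the 11 groups the sexes held the 5 genes at levels far apart for 3 of them, closer for Dnmt3b and nearly the same for Dnmt1. Background was read from 1035 probe sets of olfactory receptor genes, which are not expected in these cells, and the boundary on each array was their 95th percentile, which ranged from 6.73 to 7.14. Dnmt3l lay under this boundary in all 11 female arrays, at 5.80 to 6.22 with a median of 5.99. In the 21 male arrays it ranged from 11.44 to 11.97, with a median of 11.66. Uhrf1 went the other way: its female arrays lay at 9.20 to 9.65 and its male arrays at 6.84 to 7.37. Male Uhrf1 was thus near the boundary, and in oil G1R males its mean of 7.00 ± 0.17 (SD, n = 3) fell under the group's boundary of 7.03. In the other 6 male groups its mean lay 0.11 to 0.37 above the boundary.

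**Figure D1:**
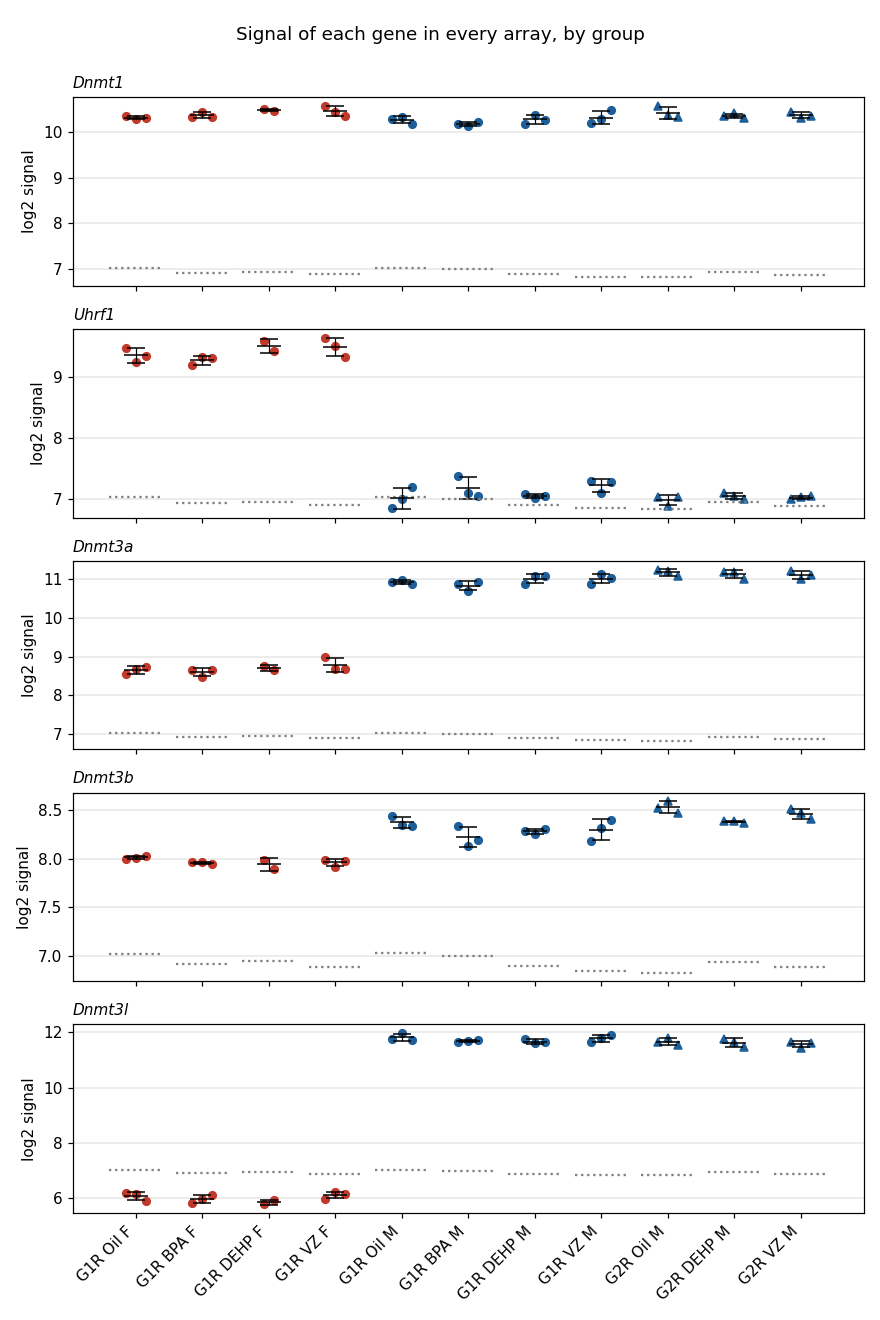
Log2 signal (y axes, a separate scale for each gene) of the 5 genes in every array of the 11 groups (x axis). Red marks female and blue male arrays, circles G1R and triangles G2R, black bars the group mean and SD, and grey dotted lines the group's background boundary. Dnmt3l in females lies under the dotted lines, male Uhrf1 lies close to them, and Dnmt1 lies between 10.12 and 10.56 in all 32 arrays.

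Ordered by their means, neighbouring groups overlapped for Uhrf1, Dnmt3a and Dnmt3l everywhere but at the step between the sexes. That step was 2.06 for Uhrf1, between VZ G1R males and BPA females. For Dnmt3a it was 2.05, between VZ females and BPA males, and for Dnmt3l it was at least 4.68, between VZ females set to their boundary and VZ G2R males. Within a sex the group means of these 3 genes spanned at most 0.34, the span of Dnmt3a over the 7 male groups. For Dnmt1 all neighbouring groups overlapped, from BPA G1R males at 10.17 ± 0.04 (SD, n = 3) to DEHP females at 10.47 ± 0.03 (SD, n = 2). For Dnmt3b 3 of the 10 neighbouring pairs did not overlap: VZ and oil females, oil females and BPA males, and DEHP and VZ G2R males. The step between the sexes was 0.21 for Dnmt3b.

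The sex comparison asked how the germ cells that remethylate before birth differ from those that do not. After oil, 4 of the 5 genes differed between the sexes, 1 higher and 3 lower in females. The background to this count was high, since 54.3% of all probe sets passed the same test, 28.7% higher and 25.6% lower in females. The 3 de novo genes were all higher in males. The test was limma with Benjamini-Hochberg adjustment over all 35556 probe sets, at an adjusted p of 0.05.

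Among the de novo genes, Dnmt3l gave 6.19, 6.16 and 5.92 in the 3 oil females and 11.74, 11.97 and 11.71 in the 3 oil males. With the female arrays set to their background boundary, it was at least 27.6-fold higher in males. The limma test, run on the signals without this boundary, gave an adjusted p of 9.08e-23. Dnmt3a gave 8.55, 8.68 and 8.73 in oil females and 10.92, 10.99 and 10.87 in oil males. Its difference was -2.27 ± 0.10 (SE) on the log2 scale, or 4.83-fold higher in males (adjusted p = 2.34e-16 by limma), and unlike Dnmt3l it was well above background in both sexes. Dnmt3b gave 7.99, 8.01 and 8.03 in oil females and 8.44, 8.35 and 8.33 in oil males. The groups did not overlap, but the difference was small, -0.36 ± 0.06 (SE), which is 1.28-fold (adjusted p = 3.16e-05 by limma). Whether transcripts of its close paralogue Dnmt3c add to this probe set was not assessed. The median size of the difference over the 5 genes was 2.27, against 0.379 over all probe sets, and the signed medians were -0.36 and 0.05.

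Of the maintenance pair, Uhrf1 gave 9.49, 9.24 and 9.35 in oil females and 6.84, 6.99 and 7.18 in oil males. It was at least 4.83-fold higher in females, with the males at the boundary where they fell under it. The limma test, again on the signals without the boundary, gave an adjusted p of 1.38e-16. Dnmt1, its partner, gave 10.34, 10.27 and 10.29 in oil females and 10.28, 10.32 and 10.17 in oil males. These groups overlapped, and the difference of 0.05 had a 95% confidence interval from -0.12 to 0.21 (adjusted p = 0.66 by limma). In bulk samples such as these, fewer cells with a transcript and less of it in each cell cannot be told apart.

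The same 4 genes passed in the same direction in the exposed groups, which hold other fetuses. After BPA 5 of 5 passed, with 55.8% of all probe sets passing, after DEHP 4 of 5, with 52.1%, and after VZ 4 of 5, with 55.4%. Dnmt3l was at least 27.2-fold, 26.3-fold and 29.5-fold higher in males after BPA, DEHP and VZ. Uhrf1 was higher in females by 2.12, 2.47 and 2.28 on the log2 scale. Dnmt3a was lower in females by 2.23, 2.31 and 2.23 on the log2 scale in the same order, with SEs of 0.10 to 0.11. Dnmt3b differed by -0.26, -0.34 and -0.34, each with no overlap between the sexes. These sizes sat within 0.24 log2 units of those in oil, and the sex by ED interactions called 0 of the 5 genes in limma after each ED, as they called 0% of all probe sets, and 0 of the 5 had an unadjusted p under 0.05.

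Dnmt1 was the gene whose call depended on the treatment and the setting. After BPA it gave 10.33, 10.43 and 10.32 in females and 10.17, 10.12 and 10.21 in males, which did not overlap. Females exceeded males by 0.19 ± 0.08 (SE, adjusted p = 0.0448 by limma), or 1.14-fold. After DEHP the difference was 0.20 (adjusted p = 0.0599) and after VZ 0.14 (adjusted p = 0.143), by the same fit. The mean of the 4 sex differences, a contrast chosen after these values were seen, was 0.15 ± 0.04 (SE, adjusted p = 0.0028 by limma), or 1.11-fold higher in females. All 5 genes passed in that contrast, as did 75.4% of all probe sets. The array medians, 7.29 to 7.34 on female and 7.40 to 7.50 on male arrays, ran the other way. The median of the differences over all probe sets in the mean contrast, however, was 0.09, higher in females like Dnmt1. Under cyclic loess that median was 0.01. The Dnmt1 excess in females was absent when the arrays were rescaled to each other by cyclic loess, where the mean difference was -0.031 (adjusted p = 0.466 by limma) and that after BPA -0.0099 (adjusted p = 0.923 by limma). The call after BPA was also lost when any 1 of the 6 BPA arrays was left out, with adjusted p from 0.0529 to 0.148. Other settings gained a call. After DEHP it passed in the unmoderated contrast (adjusted p = 0.0380). It also passed there by limma without dim probe sets (adjusted p = 0.0459) or without the second DEHP male array (adjusted p = 0.0319). After VZ it passed without the third VZ male array (adjusted p = 0.0342 by limma).

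**Figure D2:**
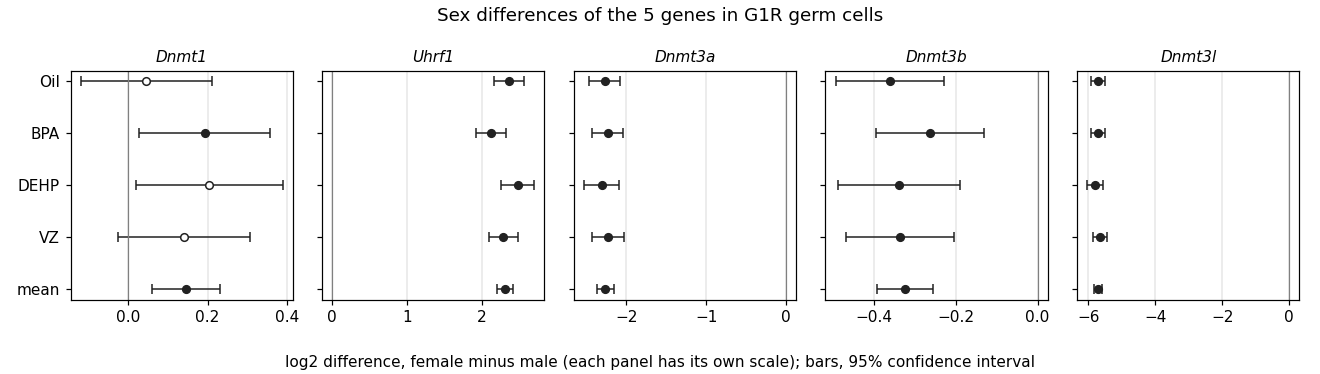
Log2 difference between female and male G1R germ cells (x axes, a separate scale for each gene) after oil, BPA, DEHP and VZ and the mean of the 4. Filled points passed the test, open points did not, and bars are 95% confidence intervals. Uhrf1 lies at 2.12 to 2.47, Dnmt3a, Dnmt3b and Dnmt3l lie below 0 in every row, and Dnmt1 lies between 0.05 and 0.20, where it had a negative mean under cyclic loess.

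The identity of the cells was read from marker genes. The 6 oocyte markers, among them Figla, Nobox and Lhx8, averaged 10.6 in oil females and 7.82 in oil males, with Stra8 under the boundary in both. Of the 5 prospermatogonia markers, Utf1 was at 11.85 in oil males and 6.48 in oil females and Dppa4 at 10.43 and 7.96. The other 3 lay closer together in the sexes: Tdrd9 was at 10.75 in oil males and 11.03 in oil females, Nanos3 at 7.40 and 7.32, and Nanos2 under the boundary in both, at 6.29 and 6.38. Of the 5 germ cell markers, Pou5f1, whose promoter drives the sorting reporter, was at 10.8 in oil males and 7.65 in oil females. Dnd1 was at 8.35 in oil males and 6.89 in oil females. The others did not follow: Ddx4 was at 11.62 and 11.59 in the same order, Dazl at 12.36 and 12.73 and Tdrd1 at 10.41 and 11.10. Some markers of other gonadal cells moved with sex. The 5 endothelial markers averaged 7.80 to 7.87 across the oil male arrays, with 4 of 5 above background, and 6.36 to 6.69 across the oil female arrays, with 2 of 5 above background. The 4 measured Leydig markers averaged 6.71 to 7.34 in oil males, with 2 of 4 above background, and 6.11 to 6.21 in oil females, with 0 of 4. The 8 Sertoli markers averaged 7.52 to 8.05 in oil males, with 6 of 8 above background, and 7.14 to 7.29 in oil females, with 5 of 8. The 6 peritubular and interstitial markers averaged 7.71 to 7.99 in oil males, with 5 of 6 above background, and 7.05 to 7.10 in oil females, with 2 of 6. The 5 granulosa markers, of an ovarian cell type, averaged 7.61 to 7.67 in oil males and 7.16 to 7.43 in oil females. In both sexes 4 of these 5 were above background. The part of these cells in the sex differences of the 5 genes was not tested.

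The other genes of the pathway were taken as 5 lists. All 7 partners of maintenance methylation differed between the sexes after oil, 4 higher and 3 lower in females, with a median of 0.69. Highest in females among them were Pcna, the replication clamp, at 1.27, Usp7, the deubiquitinase that stabilises UHRF1 and DNMT1, at 1.11, and Hells, a chromatin remodeller needed for methylation, at 1.05. Zbtb24, mutated, like HELLS, in the ICF syndrome, was higher by 0.69. Of 14 genes of S phase, when methylation is copied, 7 were higher, 3 lower and 4 did not pass. Ccne2 and Ccne1, the E cyclins, were higher in females by 1.81 and 1.24. Rrm2, a subunit of ribonucleotide reductase, was at least 2.92-fold higher in females, since its male mean of 6.69 lay under the background boundary. Mcm7, a subunit of the replicative helicase, was lower by 1.78 on the log2 scale, so the S phase list did not move one way.

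Of 7 measured genes that target de novo methylation, 1 was higher, 3 were lower and 3 did not pass. Piwil4, the nuclear PIWI protein that directs methylation to transposons in prospermatogonia, differed by -3.71, and Morc1, which also acts in transposon silencing there, by -1.81. Kdm1b, the H3K4 demethylase needed for maternal imprints, differed by -0.58, whereas Setd2, the H3K36 trimethylase, was higher in females by 1.23. Of 4 measured genes of demethylation, Dppa3, which protects methylation in the zygote and binds UHRF1, was higher in females by 3.70 and Tet3 by 0.77, Tet1 differed by -2.12 and Tet2 did not pass, with 0.11. Of 6 measured genes that supply the methyl donor, Mat2b was higher by 2.03, Mtr, methionine synthase, differed by -1.93, Shmt1 by -0.59 and Shmt2 by -0.48, and 2 did not pass. Spocd1, Tdg, Mat2a and Ahcy had no probe set naming them alone. The share of listed genes that passed, 7 of 7, 10 of 14, 4 of 7, 3 of 4 and 4 of 6, stands beside the 54.3% of all probe sets.

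**Figure D3:**
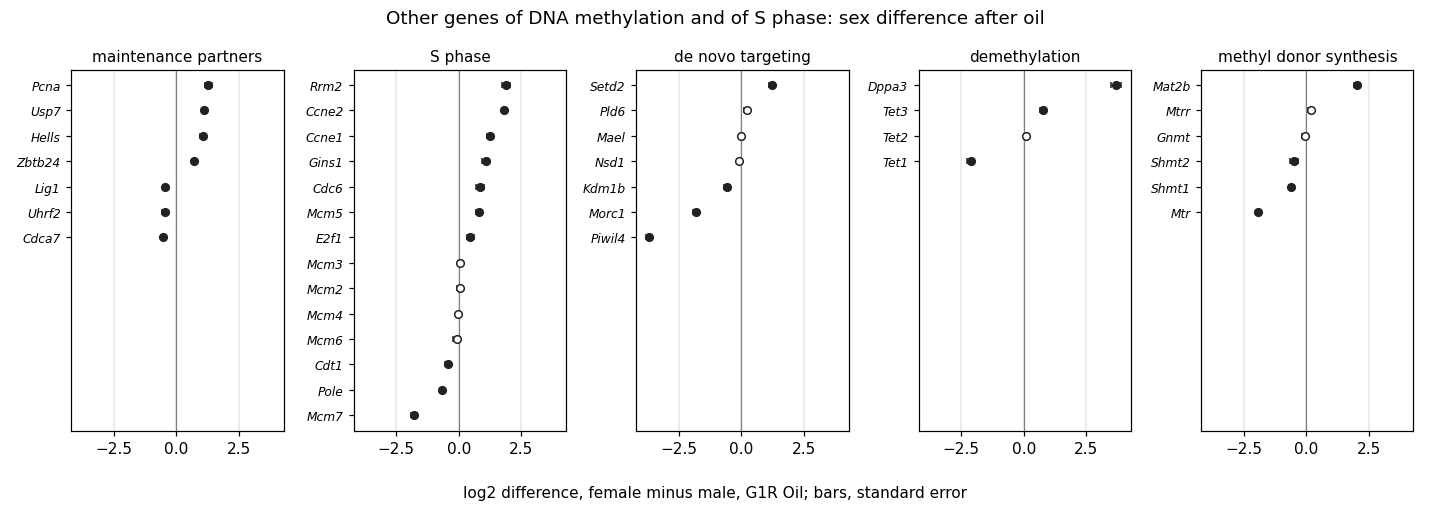
Log2 difference between female and male germ cells after oil (x axis) for the measured genes of 5 lists. Filled points passed the test, open points did not, and bars are standard errors. Each list has genes on both sides of 0, with Dppa3 at 3.70 and Piwil4 at -3.71 at the ends. The male means of Rrm2 and Cdc6, 6.69 and 6.63, and both means of Gnmt, 6.27 and 6.32, lie under the background boundary, so the differences of Rrm2 and Cdc6 are plotted as fitted and that of Gnmt has no measured fold.

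The ED comparisons asked whether exposure changed these genes in either sex, at once or in the next generation. None of the 5 genes passed in any of the 8 comparisons with the oil line of the same sex and generation, in limma or in the unmoderated contrast. In females the share of all probe sets that passed was 0% after BPA, 0% after DEHP and 0% after VZ, and 0 of the 5 genes had an unadjusted p under 0.05, as had 4.56%, 6.28% and 5.96% of all probe sets. In G1R males it was 0% after BPA, 0.00562% after DEHP and 0.00562% after VZ, and 1, 0 and 1 of the 5 genes had an unadjusted p under 0.05, as had 6.96%, 14.4% and 18.3% of all probe sets. In G2R males it was 0% for the DEHP line and 0% for the VZ line, with 1 and 0 genes at an unadjusted p under 0.05 and 6.91% and 5.41% of all probe sets. Comparisons in the same sex and generation share their 3 oil arrays.

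The differences were small, the largest being -0.22 for Dnmt3l in DEHP females, where both groups lie under the background boundary and no fold is given. For Dnmt3l in prospermatogonia, the 5 ED groups differed from oil by -0.03 to -0.15. The interval of the largest, in DEHP G1R males, ran from -0.36 to 0.07. Dnmt3a in the same 5 groups differed by -0.09 to 0.09, and its intervals together ran from -0.29 to 0.29. Dnmt1 differed by -0.09 to 0.17 over the 8 comparisons, the largest in DEHP females, with an interval from -0.02 to 0.35 and 2 arrays.

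By adjusted p, Uhrf1 came closest in VZ G1R males, with 7.28, 7.10 and 7.27 against 6.84, 6.99 and 7.18 in oil males. The difference was 0.21 with an interval from 0.01 to 0.41, and it missed the test (adjusted p = 0.242 by limma, unadjusted p = 0.0376 from the same fit). The groups overlapped and all 6 values were near background. Without the first oil male array it was 0.13.

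Dnmt3b had the other 2 unadjusted p under 0.05, both smaller than that of Uhrf1. By limma they were 0.0261 in BPA G1R males and 0.0322 in DEHP G2R males. In BPA G1R males it gave 8.34, 8.13 and 8.19 against 8.44, 8.35 and 8.33 in oil males, a difference of -0.15 with an interval from -0.29 to -0.02 (adjusted p = 0.624 by limma). In DEHP G2R males it gave 8.39, 8.39 and 8.37 against 8.52, 8.59 and 8.47 in oil G2R males, a difference of -0.15 with an interval from -0.28 to -0.01 (adjusted p = 0.703 by limma). The first pair of groups overlapped and the second did not. The other 6 values for Dnmt3b were -0.05 and -0.07 in BPA and DEHP females, -0.05 in VZ females, -0.09 and -0.08 in DEHP and VZ G1R males, and -0.07 in VZ G2R males. All 6 missed the test. In all 3 female comparisons and both of DEHP males, every Dnmt3b array of the ED group lay below the oil arrays. The share of all probe sets separated in this way is not given here, so this is a description only. The 3 female comparisons share their oil arrays, and the highest VZ female value, 7.991, was just under the lowest oil value, 7.994. The female groups had SDs of 0.01 to 0.06. The DEHP female value rests on 2 arrays and was -0.12 without the first and -0.03 without the second.

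The BPA male arrays differed in markers of other testis cells. The Sertoli list averaged 9.19, 8.79 and 7.79 on the 3 BPA male arrays and the Leydig list 8.28, 8.90 and 6.78, so the first 2 stood above the oil male arrays in both lists and the third did not. With the third as the sole BPA male array, a setting chosen after seeing the data that assumes it varies like the other groups, Dnmt3b differed from oil by -0.18 and 0 of the 5 genes passed. In the sex comparison after BPA this left 4 of 5 passing, since Dnmt1 then differed by 0.15 (adjusted p = 0.337 by limma). Among DEHP G2R males the second array had a Leydig average of 9.16, against 7.10 and 7.30 on the other two, and without it Dnmt3b differed from oil by -0.15.

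**Figure D4:**
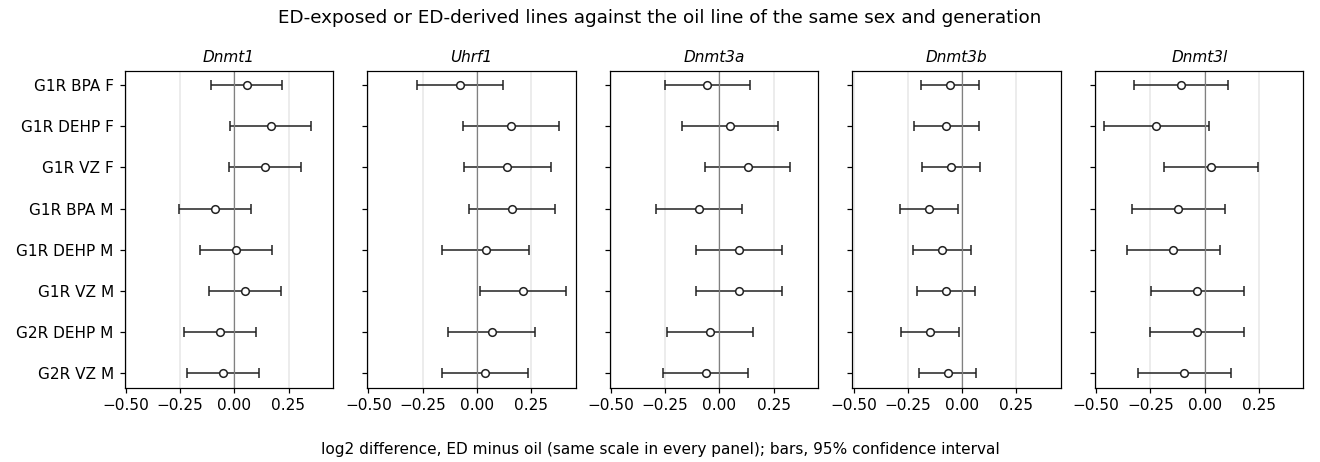
Log2 difference of each ED group from the oil group of the same sex and generation (x axes, the same scale in every panel) for the 5 genes in 8 comparisons. Open points did not pass the test and bars are 95% confidence intervals. No point is filled, and the Dnmt3b values run from -0.15 to -0.05.

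The comparison of generations set G2R against G1R prospermatogonia of the same line. The generations also differed in the direction of the cross, FVBxOG2 against OG2xFVB, and the study states that they were run at different times, so generation, cross and run cannot be told apart. Within the oil line 0 of the 5 genes passed in limma, with 10.3% of all probe sets passing, and 2 had an unadjusted p under 0.05, as had 26.9% of all probe sets. Within the DEHP line 0 passed, with 14.5%, and 0 had an unadjusted p under 0.05, against 28.8%. Within the VZ line 0 passed, with 7.77%, and 2 had an unadjusted p under 0.05, against 22.4%. The unmoderated contrast called Dnmt3b in the oil and VZ lines, along with 3759 and 2803 of all 35556 probe sets.

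Dnmt3a gave 11.23, 11.21 and 11.08 in oil G2R males and 10.92, 10.99 and 10.87 in oil G1R males. The groups did not overlap, and the difference of 0.25 had an interval from 0.05 to 0.44 (adjusted p = 0.0976 by limma). Dnmt3b gave 8.52, 8.59 and 8.47 against 8.44, 8.35 and 8.33, a difference of 0.15 (adjusted p = 0.123 by limma). In the DEHP line Dnmt3a differed by 0.11 and Dnmt3b by 0.10, and in the VZ line by 0.09 and 0.16. The 3 G2R group means of Dnmt3a lay above all 4 of the G1R males, as did those of Dnmt3b. For both genes, however, the arrays of the adjoining G1R and G2R groups overlapped. For Dnmt3b these were oil G1R males at 8.374 and DEHP G2R males at 8.382. Dnmt3l differed by -0.15, -0.04 and -0.21 in the oil, DEHP and VZ lines, and Dnmt1 by 0.15, 0.07 and 0.05.

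The mean of the 3 generation differences, also chosen after these values were seen, was tested in the same fit. Of the 5 genes 2 passed, both higher in G2R, with 30.8% of all probe sets passing. Dnmt3b rose by 0.14 ± 0.04 (SE, adjusted p = 0.00599 by limma), or 1.10-fold, and it passed when any 1 of the 18 arrays was left out, at 0.12 to 0.16, and under cyclic loess, at 0.13. Dnmt3a was higher by 0.15 ± 0.06 (SE, adjusted p = 0.0398 by limma), or 1.11-fold, but not under cyclic loess, where the value was 0.11 (adjusted p = 0.0985 by limma). Its call was also lost in 11 of the 18 fits that left out 1 array. Dnmt3l differed by -0.13 (adjusted p = 0.102 by limma), and under cyclic loess by -0.18, which passed (adjusted p = 0.0154 by limma). Uhrf1 differed by -0.07 and Dnmt1 by 0.09, and neither passed. The generation by ED interactions called 0 of the 5 genes and 0% of all probe sets for DEHP and for VZ, with 0 members under an unadjusted p of 0.05.

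**Figure D5:**
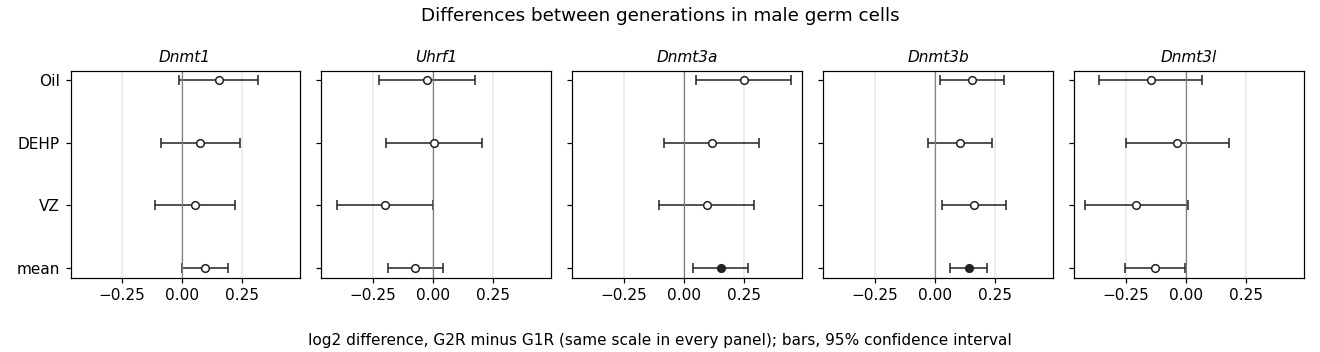
Log2 difference of G2R from G1R male germ cells (x axes, the same scale in every panel) in the oil, DEHP and VZ lines and the mean of the 3. Filled points passed the test, open points did not, and bars are 95% confidence intervals. The filled points are the mean differences of Dnmt3a, 0.15, which missed the test under cyclic loess, and Dnmt3b, 0.14.

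In the same mean contrast, 3 of 7 maintenance partners were higher in G2R and 1 lower, 4 of 14 S phase genes were higher, 5 of 7 de novo targeting genes, 2 of 4 demethylation genes and 1 of 6 methyl donor genes, beside the 30.8% of all probe sets that passed in either direction. Usp7 was higher by 0.25 and Pcna differed by -0.28. Piwil4 was higher by 0.34, Morc1 by 0.16 and Kdm1b by 0.17. Tet3 and Dppa3 were higher by 0.26 and 0.32, Mtr by 0.36 and Ccne2 by 0.21. The median of the de novo targeting list was 0.16, against -0.02 over all probe sets. Of the markers of other testis cells, 2 of 8 Sertoli markers were lower in G2R and 0 of 4 Leydig markers passed. The oocyte list averaged at most 7.71 on the 9 G2R arrays and at least 7.77 on the 9 G1R male arrays of the same lines, with 2 of 6 markers lower in G2R. The granulosa list averaged 7.34 to 7.52 and 7.51 to 7.67, with 3 of 5 lower. In the same order the prospermatogonia list averaged 9.33 to 9.58 and 9.20 to 9.44. The peritubular and interstitial list averaged 7.75 to 8.05 and 7.65 to 8.21, and the endothelial list 7.68 to 8.02 and 7.80 to 7.98. Of the germ cell markers, Pou5f1 had group means of 10.21 to 10.43 and 10.83 to 11.11, whereas Dnd1 had 8.37 to 8.58 and 7.99 to 8.35. The part of these cells in the generation differences of the 5 genes was not tested.

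Within groups, the deviations of the 32 arrays from their group means were compared between genes as a description, with no test, since all genes share the arrays and their scaling. Dnmt1 and Dnmt3a deviated together most (Pearson's r = 0.53, Spearman's rho = 0.52), followed by Dnmt3a and Dnmt3b (r = 0.46, rho = 0.42). Without the 2 arrays farthest from the median the first was 0.57 and the second 0.48. Uhrf1 and Dnmt3l, the genes near or under background in 1 sex, had r between -0.10 and 0.21 with each of the other genes over all arrays, but the values of some pairs differed between the sexes. Dnmt1 and Uhrf1 had r = 0.85 over the 11 female arrays and -0.11 over the 21 male arrays. Dnmt3l, under the boundary in females, had r = -0.65 with Dnmt3a and -0.70 with Dnmt3b there, and 0.51 and 0.38 in males.

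For each gene the 3 genes with the closest pattern over the 11 group means were named, among 6762 probe sets whose group means spanned at least 1 log2 unit. Those closest to Dnmt3l were Grb10, Asns and Dscaml1, each with r = 0.999. Grb10, an imprinted growth regulator, was at 8.19 in oil females and 11.6 in oil males. Abcc4, Palld and Lins1 were closest to Dnmt3a, and Map3k11, Emc7 and Idh3a to Uhrf1, all with r = 0.999. For Dnmt3b, which had steps within the sexes, they were Myom2 (r = 0.992), Ptpn3 (r = 0.990) and Cdkn2a (r = 0.990), the last a cell cycle inhibitor. For Dnmt1, with group means from 10.17 to 10.47, the closest were Dnajc13 (r = 0.850), Mfsd1 (r = 0.837) and Rab11fip4 (r = 0.830). These r are a description over 11 groups that fall into 2 sexes. With Spearman's rho in place of r, 0 of the 15 genes were named again.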

How the data were processed

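RNA of EGFP-sorted germ cells was hybridised to Affymetrix Mouse Gene 1.0 ST arrays. The authors normalised the 32 arrays with RMA, per the labels together with Partek, whose version is not given in the sources used here, and the deposited values are log2 signals from 2.59 to 14.82. The array medians as deposited were 7.29 to 7.34 on female and 7.40 to 7.50 on male arrays, so the arrays do not share 1 distribution. Groups were taken from the sample titles. Array values hold no read depth, and the number of arrays limits the precision.

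A mean per group was fitted to all 35556 probe sets with limma 3.58.1 in R 4.3.3 (21 residual and 3.67 prior degrees of freedom), and p-values were adjusted by Benjamini-Hochberg over all probe sets. In all, 22 contrasts were fitted, 2 of them added after values were seen. The fit was tested on simulated data. Symbols came from the platform annotation: 21789 probe sets name 1 gene, 1621 name several and 12146 are not listed, and 21698 symbols were checked by Entrez identifier. Where a listed gene had several probe sets, that with the highest mean was used. Text names the 5 members, up to 4 genes per list with the smallest p in the oil sex difference, the 3 closest in pattern to each member, and cell markers. The members and lists were chosen with earlier results of these data known. Alternatives were the unmoderated contrast, only the arrays compared, no dim probe sets, single-gene probe sets, cyclic loess, array weights, a replicate block, each array left out, and other background boundaries. Motifs and figures were made with Python 3.11 and matplotlib 3.10.9. Dnmt3b has a close paralogue, Dnmt3c, which this annotation does not name, so cross-hybridisation was not assessed. One item is not reported here.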

Additional observations from a re-analysis of the deposited data

How the results depend on the processing

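Of 1730 recomputed differences of the 5 genes, 1690 kept their direction and side of the threshold or, if uncalled, moved by less than 1 SD, 9 uncalled ones moved further, 22 lost and 7 gained a call, and 2 reversed. Both reversals were of Dnmt1 under cyclic loess, with a sex difference of -0.0099 after BPA and a mean over the 4 treatments of -0.031. The cause was not tested. Of 419 recomputed counts, 404 stayed within 1.5 times. The unmoderated contrast called 1 of the 5 genes in the generation comparison of the oil line and 1 in that of the VZ line, in place of 0. It called 3759 and 2803 of all 35556 probe sets in these comparisons. With the median of the olfactory probe sets as the background boundary, 0 group means of the 5 genes were not above background, in place of 5, and Spearman's rho named 0 of the 15 genes of similar pattern again. In the mean generation contrast, leaving out 1 array gave 1 to 2 genes called. The fits with 1 gene called had 9984 to 10675 of all 35556 probe sets called. Sex calls of Uhrf1, Dnmt3a, Dnmt3b and Dnmt3l held under all alternatives run.

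Replicate numbers did not pair the samples: 4 of 43 same-numbered pairs had deviations correlated above 0.1, in 0 of 15 comparisons for every pair, and 7 of 32 arrays correlated best with their own number. With the number as a replicate block, Dnmt1 after BPA kept its sex difference of 0.19 but missed the test (adjusted p = 0.0524 by limma), which left 4 of 5 genes, and no other call of the 5 genes changed. Signals near background, those of Uhrf1 in males and Dnmt3l in females, limit any order of groups there.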
